A study of Mus musculus with 8 samples.

Results

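Adrenomedullin signalling was followed in mouse blood precursors through its ligand gene, Adm, and the receptor genes Calcrl, Ramp1, Ramp2 and Ramp3. A gene was taken where a probe set named that gene and no other, and a gene with several such probe sets was represented by the brightest of them, averaged over all 8 arrays. This gave 4 of the 5 listed genes, measured by 5 of 16348 probe sets, against 14683 genes named on the array. Ramp3 has no value here because its probe set also names Nacad. The measured values that the members' probe sets were chosen by were those mean levels. They decided only for Ramp1, whose 2 probe sets averaged 4.46 and 3.11 on the log2 scale. The members themselves, the listed genes, were chosen with earlier results of these data known. Counts of these genes against all probe sets are therefore not independent of that choice.

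The cells were iSOX7 haematopoietic precursors, made from embryonic stem cells of an Ainv18 derivative that turns on SOX7 under doxycycline. SOX7 is a transcription factor of early blood and endothelial cells. FLK1+ cells from embryoid bodies were grown in liquid blast medium, which contained VEGF, IL6 and D4T conditioned medium, and then sorted as CD41+/CD34-. The 4 groups of 2 arrays were sorted precursors with doxycycline for 24 h, without it for 24 h, with it for 12 h, and without it for 12 h. All groups share the one engineered line, and doxycycline-treated cells lacking the transgene were not analysed here, so SOX7 and the drug itself cannot be told apart. Nothing used here says whether replicates were separate cultures, so each p-value reflects the spread of these samples alone, and that spread may be technical.

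Adrenomedullin is a secreted peptide that widens blood vessels and is needed for vascular and lymphatic development. Its receptor is a complex: CALCRL, a class B G protein-coupled receptor, binds the peptide only with a RAMP partner at the cell surface. RAMP2 and RAMP3 make it an adrenomedullin receptor, RAMP1 makes it the receptor for calcitonin gene-related peptide, and both kinds signal mainly through Gs and cyclic AMP.

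Sox7 lay between 10.57 and 10.96 in the 4 arrays with doxycycline, against 6.82 to 7.17 in the 4 without. Arrays correlated with r from 0.9732 to 0.9915, and 1 array stood apart, the second of the untreated cells at 24 h. Its values spread less over probe sets (SD 2.355) than those of the others (SD 2.433 to 2.517). Itga2b, which encodes the sorted antigen CD41, lay between 9.27 and 10.89, and Cd34, the antigen sorted against, between 9.18 and 10.78. Levels here are log2 expression values of a probe set, and they set samples against each other for 1 gene, not genes against each other.

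Adm, the ligand, spanned 5.44 log2 units over the 8 arrays, against 0.93 to 2.62 for the receptor genes, and it was high late in culture. With doxycycline it read 9.40 and 9.05 at 24 h, against 3.96 and 5.34 at 12 h. Without doxycycline it read 7.91 and 7.01 at 24 h, against 4.51 and 5.34 at 12 h. Every array at 24 h lay above every array at 12 h, and the arrays with doxycycline at 24 h were the highest of all. Within a condition, 24 h lay above 12 h without overlap for 18.7% of all probe sets with doxycycline and 14.6% without it.

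In doxycycline-treated cells Adm rose at 24 h over 12 h by 4.58 ± 0.50 on the log2 scale (SE, n = 2 per group), with a limma adjusted p of 0.023. It was the 1 of 4 genes that passed there, where 0.184% of all probe sets passed. Without doxycycline the difference was 2.54 ± 0.50, with an adjusted p of 0.16, and 0 of 4 genes passed, against 0.147% of all probe sets. At an unadjusted p under 0.05 the counts were 2 of 4 with doxycycline, against 6.83% of all probe sets, and 2 of 4 without it, against 7.46%.

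No background level is known for these arrays, so whether the 12 h values of Adm, 3.96 to 5.34, lay above background is unknown and no fold is given over them. The time call of Adm rested on the pooled spread of the 4 groups. It was lost in a fit of the compared groups alone (adjusted p = 0.12). In that fit 0 of 16348 probe sets passed, so the loss there was not particular to Adm. The call was also lost on leaving out any of the 4 arrays with doxycycline or either array without it at 24 h. With each of the 8 arrays left out in turn the change ran from 3.89 to 5.27 and the adjusted p from 0.0265 to 0.22.

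The arrays with doxycycline lay above those without it at 24 h and overlapped them at 12 h, and neither difference of Adm passed the test. At 24 h the change was 1.77 ± 0.50, or 3.40-fold, with a 95% interval of 0.59 to 2.94 and an adjusted p of 0.183. At 12 h it was -0.28 ± 0.50, with an interval of -1.45 to 0.90 and an adjusted p of 0.983, and the second pair of arrays had equal values of 5.34. Over both times it was 0.75 ± 0.49, with an adjusted p of 0.572, and 0.36 without the array that stood apart (adjusted p = 0.704). The 24 h effect exceeded the 12 h effect by 2.04 ± 0.71, with an unadjusted p of 0.0223 and an adjusted p of 0.9998. For that difference limma passed 0 of 16348 probe sets (0%), and 505 (3.09%) had an unadjusted p under 0.05.

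**Figure D1:**
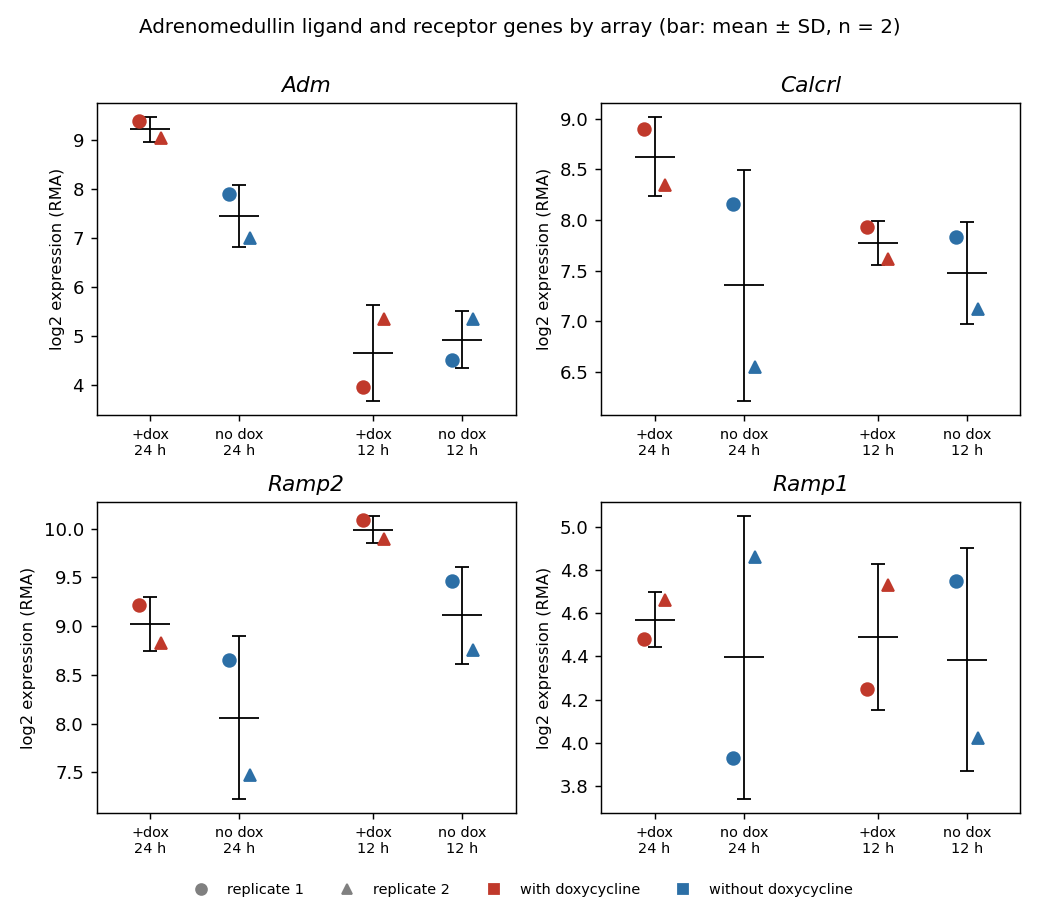
Log2 expression (vertical axis, scaled separately in each panel) of the measured genes in every array, with the 2 replicates of each group as points and their mean ± SD as a bar. Adm is high in the 4 arrays at 24 h, between 7.01 and 9.40, and Ramp2 is highest in the 2 arrays with doxycycline at 12 h, at 10.09 and 9.89.

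Adm is also a textbook target of the hypoxia-inducible factors, so 16 measured genes of a 20-gene hypoxia and glycolysis list were set beside it. Their mean log2 level was 10.09 and 9.92 with doxycycline at 24 h, 9.66 and 9.46 without it at 24 h, 8.58 and 8.45 with it at 12 h, and 8.21 and 8.29 without it at 12 h. In cells with doxycycline 5 of the 16 rose at 24 h over 12 h and 0 fell, against 0.184% of all probe sets passing. The median change was 1.56, against -0.01 over all probe sets. The 5 were Bnip3 and Ddit4, stress-response genes, Egln3 and Egln1, oxygen sensors that mark hypoxia-inducible factors for destruction, and the glycolytic enzyme gene Pfkl.

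Egln3 rose by 2.12 ± 0.16 (adjusted p = 0.00736) and Bnip3 by 2.63 ± 0.28 (adjusted p = 0.023) with doxycycline. Without doxycycline 5 of 16 rose as well, where 0.147% of all probe sets passed. Among them was Bnip3, by 2.94 ± 0.28 (adjusted p = 0.0223), and the median change of the 16 was 1.41. Without the array that stood apart 3 of 16 rose in each comparison, and with each array left out in turn 0 to 5 rose with doxycycline and 0 to 6 without it.

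The hypoxia and glycolysis list was also counted for doxycycline. Of all probe sets 4.42% passed over both times, or 7.53% with the replicate number as a block. At 12 h 0.924% passed, and at 24 h 1.44%. Over both times 3 of 16 rose and 0 fell, or 5 of 16 with the block and 2 of 16 without the array that stood apart, with a median change of 0.33, against -0.01 over all probe sets. The 3 were Ndrg1, a stress-response gene, and P4ha1 and P4ha2, which encode collagen prolyl hydroxylases. At 12 h 1 of 16 rose, Ndrg1 by 1.54 ± 0.21 (adjusted p = 0.0277), a call that held in 4 of 8 fits with an array left out and was lost without any array at 12 h. At 24 h 0 of 16 passed in limma, and 7 of 16 had an unadjusted p under 0.05, all higher, against 11.4% of all probe sets. Oxygen was not measured here, and the part of these genes' changes in that of Adm was not tested.

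**Figure D2:**
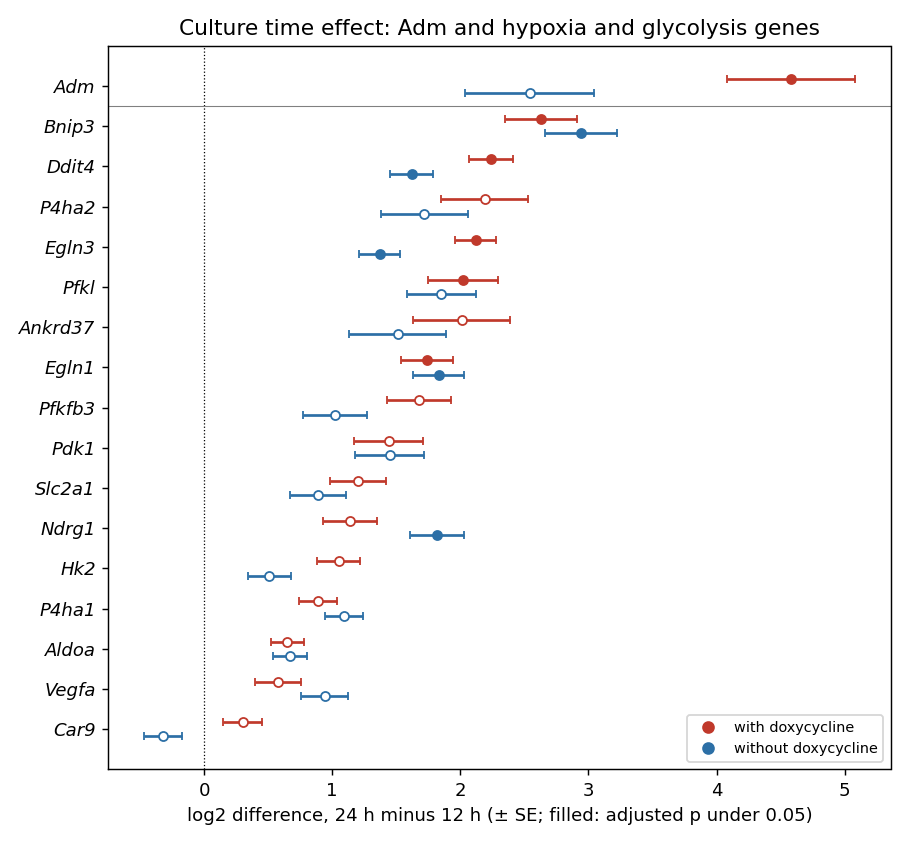
Log2 difference of 24 h minus 12 h (horizontal axis) for Adm and the 16 measured hypoxia and glycolysis genes, with and without doxycycline, with bars for the standard error and filled points for an adjusted p under 0.05. Adm lies at 4.58 with doxycycline and 2.54 without it, and the list runs from Bnip3, at 2.63 and 2.94, to Car9, at 0.30 and -0.32.

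The promoter windows of Adm and Calcrl are shown because they can be set beside the changes of the ligand and its receptor. They are the 250 bases before each gene's start from RefSeq (GRCm38.p6), at chr7:110627407-110627656 on the plus strand for Adm and chr2:84425267-84425516 on the minus strand for Calcrl, 5′ to 3′. Capitals mark ACAAT, a core that SOX factors bind, and GGAA, the ETS core, on either strand, so that GGAA on the other strand reads TTCC.
Adm: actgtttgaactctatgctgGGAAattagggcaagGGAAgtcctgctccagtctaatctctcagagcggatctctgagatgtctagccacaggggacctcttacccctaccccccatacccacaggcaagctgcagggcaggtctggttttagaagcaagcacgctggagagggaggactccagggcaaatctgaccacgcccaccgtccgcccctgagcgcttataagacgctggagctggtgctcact
Calcrl: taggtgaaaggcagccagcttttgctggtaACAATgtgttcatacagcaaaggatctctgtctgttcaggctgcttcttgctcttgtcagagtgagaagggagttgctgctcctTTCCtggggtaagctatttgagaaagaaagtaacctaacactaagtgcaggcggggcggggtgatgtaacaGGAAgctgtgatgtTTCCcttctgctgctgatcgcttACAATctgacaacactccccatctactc
The Calcrl window holds 2 matches to ACAAT, at positions -220 and -28 from the gene's start, and 3 to GGAA, with no overlap between them. The Adm window holds 0 matches to ACAAT and 2 to GGAA. Among 32851 promoter windows of this length 27.7% hold ACAAT and 93.4% hold GGAA. For the hypoxia response core only the letters ACGTG were searched, which have 0 matches in these 2 windows and stand in 16.6% of all windows. Other forms of that core were not searched, so this count does not show that either window lacks it. A match is a run of letters and not a shown binding site, and 3 of the 4 genes were in the promoter table.

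Calcrl, the receptor that binds the peptide, was higher with doxycycline at 24 h. It read 8.90 and 8.35 with doxycycline at 24 h, against 8.16 and 6.55 without it. The groups did not overlap, as held in this direction for 15.2% of all probe sets. At 12 h it read 7.93 and 7.62 with doxycycline, against 7.83 and 7.12 without it, and the groups overlapped. The second array without doxycycline at 24 h was the lowest of the 8.

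The change of Calcrl at 24 h was 1.27 ± 0.50, or 2.41-fold, with a 95% interval of 0.10 to 2.44 and an adjusted p of 0.382. Without the array that stood apart it was 0.47, and without the first array of the same group it was 2.08. With the replicate number as a block the 24 h change was 1.27 ± 0.29, with an adjusted p of 0.0644. At 12 h the change was 0.30 ± 0.50, with an interval of -0.87 to 1.47 and an adjusted p of 0.98. Calcrl was higher with doxycycline in 4 of 4 same-numbered pairs, by 0.10 to 1.80, as were 14.4% of all probe sets. Over both times the change was 0.79 ± 0.37, with an adjusted p of 0.377. It was 0.37 without the array that stood apart and 1.01 without the first array of the same group.

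With time, Calcrl showed no change that passed in either condition. The difference of 24 h over 12 h was 0.85 ± 0.50 with doxycycline (adjusted p = 0.88) and -0.12 ± 0.50 without it (adjusted p = 0.99). The interval without doxycycline was -1.29 to 1.05. Without the array that stood apart the difference was 0.69, and without the first array of the same group it was -0.93.

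Ramp2, which turns CALCRL into an adrenomedullin receptor, was higher with doxycycline at both times. It read 9.22 and 8.83 with doxycycline at 24 h, against 8.65 and 7.47 without it. At 12 h it read 10.09 and 9.89 with doxycycline, against 9.46 and 8.76 without it. The groups did not overlap at either time, as held in this direction for 15.2% of all probe sets at 24 h and 21.7% at 12 h. Each pair with the same number was higher with doxycycline, by 0.57 to 1.36, as were 14.4% of all probe sets in all 4 pairs.

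Over both times Ramp2 differed by 0.92 ± 0.26 (SE, 4 arrays against 4), or 1.90-fold, with a 95% interval of 0.32 to 1.52 and an adjusted p of 0.106. With the replicate number as a block the same difference was 0.92 ± 0.15, with an interval of 0.56 to 1.28 and an adjusted p of 0.0119. None of the 4 genes passed without the block, where 4.42% of all probe sets passed, and 1 of 4 passed with it, where 7.53% did. Repeating the quantile normalization also brought Ramp2 past the threshold (adjusted p = 0.0431), as did leaving out the first array without doxycycline at 24 h (1.15, adjusted p = 0.0394), and over all 8 arrays left out in turn the adjusted p ran from 0.0394 to 0.267.

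At single times the change of Ramp2 was 0.97 ± 0.39 at 24 h (adjusted p = 0.403) and 0.88 ± 0.39 at 12 h (adjusted p = 0.60). These nearly equal changes differed by 0.09 ± 0.56, with an interval of -1.21 to 1.38. Without the array that stood apart the 24 h change was 0.38, and without the first array of the same group it was 1.56. With the replicate block the 24 h change was 0.97 ± 0.23, with an adjusted p of 0.0739.

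With time, the values of Ramp2 were lower where those of Adm were higher. Ramp2 was lower at 24 h than at 12 h in 4 of 4 same-numbered pairs, by log2 differences of -1.29 to -0.81. The share of all probe sets that did so was not counted. The 2 times did not overlap, in either direction, for 39.1% of all probe sets with doxycycline and 28.9% without it. The change was -0.97 ± 0.39 with doxycycline (adjusted p = 0.707) and -1.05 ± 0.39 without it (adjusted p = 0.561), and neither passed the test. The change without doxycycline was -0.46 without the array that stood apart and -1.64 without the first array of the same group.

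**Figure D3:**
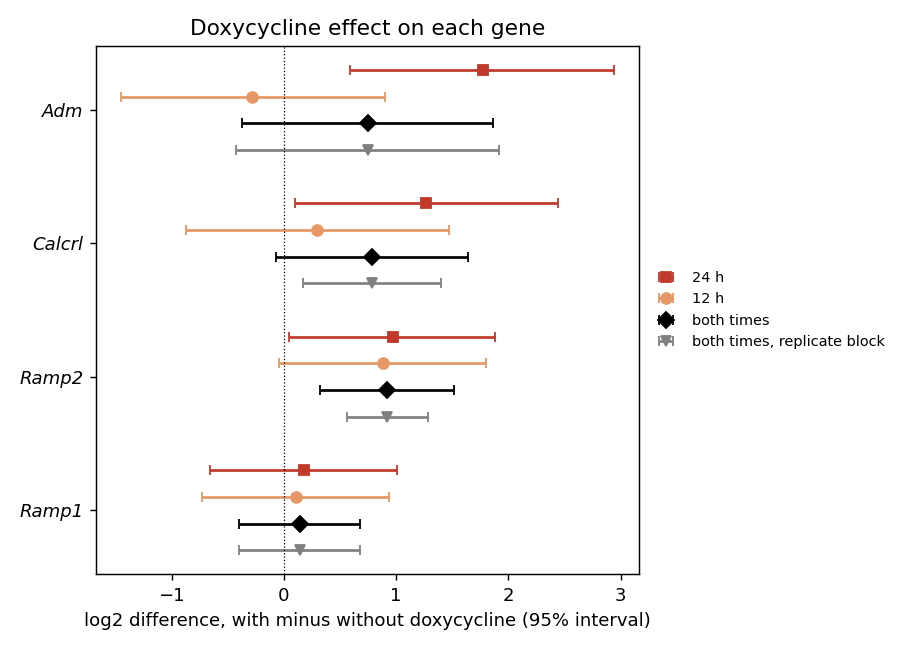
Log2 change of each measured gene with doxycycline against none (horizontal axis) at 24 h, at 12 h and over both times, with bars for the 95% interval. The Ramp2 interval over both times narrows with the replicate block, to 0.56 to 1.28, and the Adm interval lies above 0 at 24 h and spans 0 at 12 h.

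Ramp1, the partner for calcitonin gene-related peptide, had 2 probe sets that disagreed. The one with the higher mean read 4.48 and 4.66 with doxycycline at 24 h, against 3.93 and 4.86 without it, and 4.25 and 4.73 with doxycycline at 12 h, against 4.75 and 4.02 without it. The groups overlapped at both times, and the change over both times was 0.14 ± 0.24 (interval -0.40 to 0.68, adjusted p = 0.887).

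The other Ramp1 probe set was lower with doxycycline in 4 of 4 pairs, and 27.5% of all probe sets went one way in all 4. It read 3.01 and 2.65 with doxycycline at 24 h, against 3.45 and 3.45 without it, and 2.53 and 3.09 with doxycycline at 12 h, against 3.19 and 3.48 without it. Its change over both times was -0.57 ± 0.15, with an adjusted p of 0.0783, or 0.0587 with the block. Both probe sets were among the dimmest 33.3% of the array, where no background level is known, so no direction is given for Ramp1.

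Counted together, the 4 genes did not pass for doxycycline at either time. At 24 h 0 of 4 passed in limma, against 1.44% of all probe sets, and 3 of 4 had an unadjusted p under 0.05, against 11.4%. At 12 h 0 of 4 passed, against 0.924%, and 0 had an unadjusted p under 0.05, against 8.85%. The groups did not overlap, with the higher values under doxycycline, for 3 of 4 genes at 24 h and 1 of 4 at 12 h, against 15.2% and 21.7% of all probe sets. The median change of the 4 was 1.12 at 24 h and 0.20 at 12 h, beside -0.01 and 0.00 over all probe sets.

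Endothelial markers were set beside Calcrl and Ramp2, whose values were higher with doxycycline in all 4 pairs. The mean log2 level of all 16 markers was 9.34 and 8.94 with doxycycline at 24 h, against 8.25 and 7.24 without it, and 9.13 and 8.70 with doxycycline at 12 h, against 8.44 and 7.62 without it. Over both times 7 of 16 rose and 0 fell, against 4.42% of all probe sets passing, and 12 of 16 rose with the block, against 7.53%. The median change was 1.19, against -0.01 over all probe sets. Without the array that stood apart 7 of 16 rose, with a median of 0.94. With time 0 of 16 passed in limma in either condition, against 0.184% of all probe sets with doxycycline and 0.147% without it. An unadjusted p under 0.05 held for 3 of 16 with doxycycline and 1 without it, against 6.83% and 7.46% of all probe sets. The median change was 0.09 with doxycycline and -0.25 without it. In bulk samples fewer cells of a type and less RNA per cell cannot be told apart.

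Calcrl and Ramp2 are themselves known from endothelial cells, and both were lower in the second replicate of every group, as was the endothelial mean. Smooth muscle and mesenchyme markers, 13 of 14 measured, ran the other way, with means of 7.04 to 7.23 in the second replicates and 6.06 to 6.31 in the first. Megakaryocyte markers, 9 of 13 measured, were lower in the second replicate of every group as well. They lay between 6.52 and 7.20 there, against 7.16 to 8.65 in the first. The means of the erythroid, macrophage and blood precursor markers were also lower in every second replicate, so this was not particular to endothelial markers. The share of all probe sets that did so was not counted. Over both times 0 of the mesenchyme and 0 of the megakaryocyte markers passed in limma, with 0 of each at an unadjusted p under 0.05.

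Blood cell markers were also counted for doxycycline over both times, where 4.42% of all probe sets passed. Of 11 measured erythroid markers 7 fell over both times and 0 rose, with a median change of -1.10, and their mean level was 10.24 and 10.11 with doxycycline at 24 h, against 11.31 and 11.03 without it. Of 11 macrophage markers 1 rose and 1 fell, and of 10 blood precursor markers 2 fell and 0 rose. The part of any of these cell types in the values of Adm, Calcrl and Ramp2 was not tested.

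**Figure D4:**
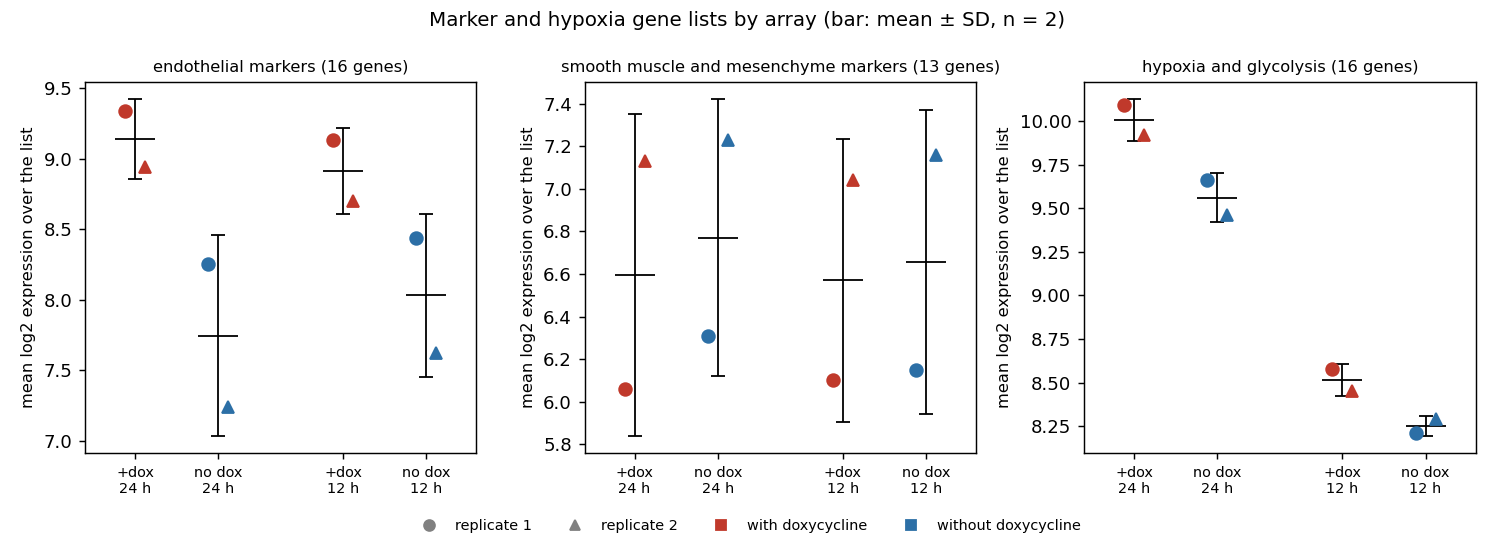
Mean log2 level of marker and pathway lists (vertical axis) in every array, with the 2 replicates of each group as points and their mean ± SD as a bar. The endothelial mean is higher in every array with doxycycline than in any without it, and the hypoxia and glycolysis mean is between 9.46 and 10.09 at 24 h, against 8.21 to 8.58 at 12 h.

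The other genes of the pathway were counted for doxycycline as well, where 4.42% of all probe sets passed over both times. Of the other calcitonin family peptides 3 of 4 were measured and 0 passed in limma in any of the 6 comparisons, with 0 at an unadjusted p under 0.05. Calcb, which encodes a calcitonin gene-related peptide, had the smallest p of them, with 0.20 ± 0.18 over both times (adjusted p = 0.733). Of the other receptors and carriers 3 of 4 were measured and 0 passed, with 0 at an unadjusted p under 0.05 for doxycycline over both times. Crcp, a component described as helping this receptor family to signal, differed by -0.23 ± 0.12 (adjusted p = 0.439).

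Of the genes that amidate or break down the peptides, 3 of 4 were measured and 1 rose. Ece1, a membrane protease that activates endothelin and cuts other vasoactive peptides, read 9.55 and 9.63 with doxycycline at 24 h, against 7.81 and 8.10 without it. At 12 h it read 9.30 and 9.64 with doxycycline, against 7.93 and 8.51 without it. It rose by 1.64 ± 0.23 at 24 h (adjusted p = 0.0224) and by 1.44 ± 0.16 over both times (adjusted p = 0.00262). The 24 h call was lost without any 1 of its 4 arrays (adjusted p up to 0.157), and the call over both times held in 8 of 8 such fits.

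The cyclic AMP signalling list had 32 of 35 genes measured, of which 1 rose and 2 fell over both times, against 4.42% of all probe sets passing. Whether each listed gene acts downstream of the receptor in these cells was not tested. Adcy7, an adenylyl cyclase, fell by 1.38 ± 0.24 (adjusted p = 0.0152). Creb3l1, a membrane-bound relative of CREB, fell by 0.99 ± 0.09 (adjusted p = 0.00119), and Pde8a, a cyclic AMP phosphodiesterase, rose by 0.54 ± 0.12 (adjusted p = 0.0461). Whether the values of Pde8a, 4.76 to 5.57, lay above background is unknown. With each array left out in turn, Creb3l1 passed in 8 of 8 fits, Adcy7 in 7 of 8, all but that without the first array with doxycycline at 24 h, and Pde8a in 1 of 8, that without the first array without doxycycline at 24 h. Of 17 cyclic AMP response genes 0 passed in limma over both times and 6 had an unadjusted p under 0.05, 4 higher and 2 lower, against 15.6% of all probe sets. Pde4b, a phosphodiesterase that cyclic AMP induces, had the smallest p, with 0.98 ± 0.30 (adjusted p = 0.132).

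Among the relatives of CALCRL, 12 of 13 other class B peptide hormone receptors were measured. Over both times 2 rose and 0 fell, against 4.42% of all probe sets passing. Pth1r, the parathyroid hormone receptor, rose by 3.16 ± 0.22 at 12 h (adjusted p = 0.00364) and by 1.72 ± 0.22 at 24 h (adjusted p = 0.0174). Glp1r, the receptor of glucagon-like peptide, rose by 0.60 ± 0.12 over both times (adjusted p = 0.0283). Whether the values of Glp1r, 5.02 to 6.06, lay above background is unknown. Pth1r passed at 12 h in 8 of 8 fits with an array left out and at 24 h in 5 of 8, lost without either array with doxycycline or the second without it at 24 h. Glp1r passed in 2 of 8 such fits, those without the first array at 12 h with or without doxycycline.

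Of the other vasoactive peptides and receptors, 19 of 24 were measured. For doxycycline at 12 h 0.924% of all probe sets passed. Edn1, which encodes the vessel-constricting peptide endothelin, read 5.00 and 4.99 with doxycycline at 24 h, against 4.96 and 4.94 without it. At 12 h it read 7.44 and 7.78 with doxycycline, against 6.67 and 6.31 without it. Whether its 24 h values lay above background is unknown. It rose with doxycycline at 12 h, by 1.12 ± 0.18 (adjusted p = 0.0398), the 1 of 19 that passed there, but in 0 of 8 fits with an array left out (adjusted p from 0.0583 to 0.295). Adm was higher at 24 h in all 4 pairs, a count that was not made over all probe sets. With time Edn1 fell by 2.62 ± 0.18 with doxycycline (adjusted p = 0.00482) and by 1.54 ± 0.18 without it (adjusted p = 0.0295). The call with doxycycline passed in 6 of 8 such fits, lost without the first array at 24 h or the second at 12 h, and that without doxycycline in 2 of 8 (adjusted p up to 0.204).

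The genes with the most like patterns were found by the root mean square difference of log2 levels over the 8 arrays, each gene centred on its own mean, among 14682 other genes. For Adm they were Aldoc, a glycolytic aldolase, at 0.78, Tmem255a at 0.89 and Plekha2 at 0.90, against a median of 1.96 over all genes. Aldoc read 9.54 and 9.12 with doxycycline at 24 h, 8.90 and 8.23 without it at 24 h, 6.52 and 6.53 with it at 12 h, and 6.40 and 6.84 without it at 12 h.

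For Calcrl the nearest were Scarf1, a scavenger receptor gene, at 0.18, Asah2, a ceramidase gene, at 0.21 and Arhgap18 at 0.21, against a median of 0.69. For Ramp2 they were Lpar4 at 0.12, Fgf10 at 0.23 and Lpar6 at 0.26, against a median of 0.79. Lpar4 and Lpar6 encode lysophosphatidic acid receptors and Fgf10 a growth factor. Lpar4 read 8.22 and 7.77 with doxycycline at 24 h, against 7.67 and 6.57 without it, and 9.08 and 8.71 with it at 12 h, against 8.17 and 7.63 without it. The 8 arrays shared by these genes include the second array without doxycycline at 24 h, which was the lowest for Calcrl and Ramp2. Ramp1 spanned 0.93 over the 8 arrays, under the span of 1 set for such a search.

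**Figure D5:**
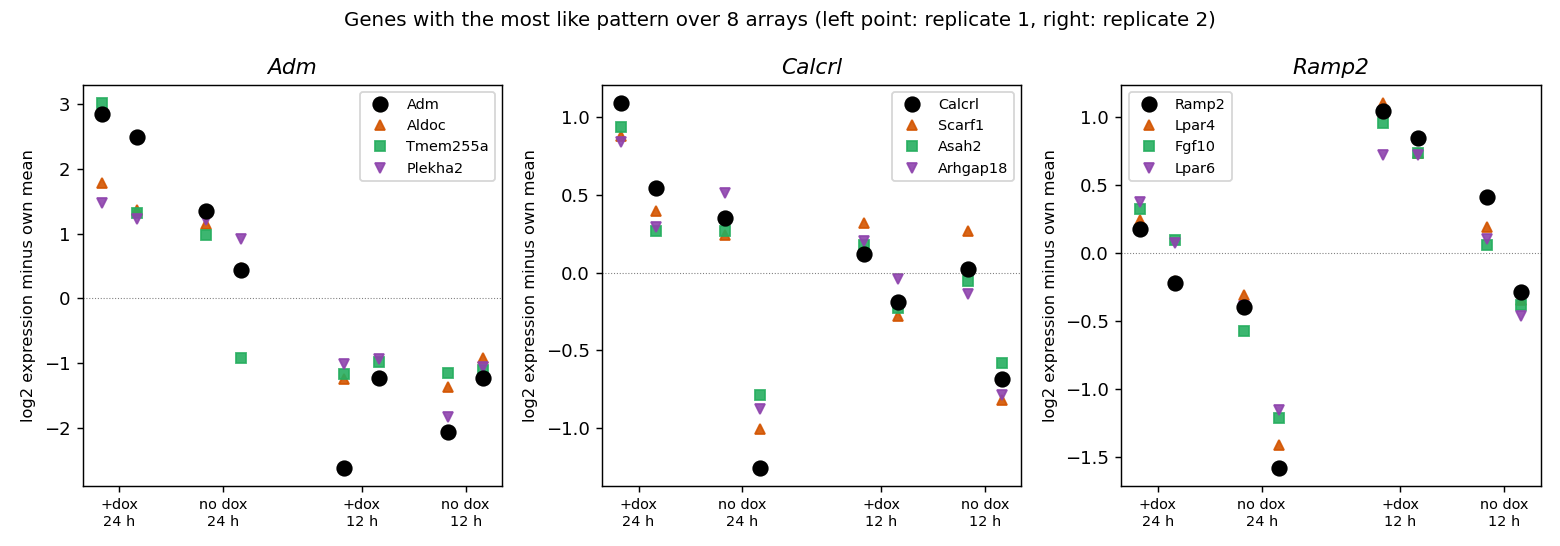
Log2 expression minus each gene's own mean (vertical axis) in every array, for Adm, Calcrl and Ramp2 and the 3 genes nearest to each, with replicate 1 left of replicate 2. The Ramp2 panel shows Lpar4 close to Ramp2 in every array, with a root mean square difference of 0.12.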

How the data were processed

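Per the submitters' processing notes, the authors made the deposited log2 expression values with RMA in Affymetrix Power Tools, versions not given. Genome build and any filter are not given in the sources used here, and scanner files were not used here. The platform annotation gave 14785 of 16348 probe sets 1 symbol.

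Linear models (limma 3.58.1, R 4.3.3) were fitted to all 8 arrays, with 1 mean per group, or with terms for doxycycline and time for the comparison over both times. Benjamini-Hochberg adjustment covered all 16348 probe sets, and a gene passed at an adjusted p under 0.05. The pipeline was tested on simulated data with independent arrays and a shift for doxycycline only. The simulation held no time effect and no correlation between same-numbered arrays, so it does not test those parts. The number of arrays limits the precision.

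Deviations from group means correlated between same-numbered arrays (r 0.298 to 0.428). The main fits leave the replicate number out, and an alternative fit takes it as a block. Same-numbered arrays were also set against each other as 4 pairs, without a test.

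The members, the 16 lists, the motifs and the tests were chosen with earlier results of these data known. Named genes were the members and Sox7, up to 4 passing genes per list (otherwise the 1 with the smallest p), and the 3 genes nearest each pattern. Genes of the hypoxia list named for time were chosen after their values were seen. Alternatives were a repeated quantile normalization, median centring, an intensity trend, leaving out the dimmest 33.3% of probe sets, the replicate block, only the compared groups, and each array left out in turn.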

Additional observations from a re-analysis of the deposited data

How the results depend on the processing

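Of 322 values of the 4 genes under alternatives, 289 kept their direction and side of the threshold, 7 lost a call, 3 gained one and 23 turned direction. The cause was not tested. Only Adm lost a call and only Ramp2 gained one, as given above; 0 genes passed for time with doxycycline when only its groups were fitted, and 1 passed over both times with the quantile normalization or the replicate block. Of the 23 turns, 2 were of Ramp1 with time without doxycycline, to -0.05 (quantile normalization) and -0.01 (median centring), and 21 came from leaving out 1 array. Those ranges were -0.97 to 0.42 for Adm, -0.06 to 0.66 for Calcrl and -0.26 to 0.47 for Ramp1 with doxycycline at 12 h; -0.29 to 0.64 for Ramp1 at 24 h; -0.40 to 0.54 for Ramp1 and -0.51 to 0.68 for Ramp2 in the difference of effects; -0.93 to 0.69 for Calcrl and -0.46 to 0.48 for Ramp1 with time without doxycycline; -0.16 to 0.32 for Ramp1 with time with doxycycline; and -0.05 to 0.32 for Ramp1 over both times.

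Counts over all probe sets moved more. For doxycycline at 24 h the 235 became 415 (quantile normalization), 367 (dim probe sets left out), 677 (replicate block) and 126 (compared groups only), and 4 to 297 with 1 array left out. At 12 h the 151 became 241, 239, 467 and 0 under the same settings, and 7 to 201. For time with doxycycline the 30 became 49, 58, 123 and 0, 62 with an intensity trend, and 0 to 29. Without doxycycline the 24 became 61, 51, 130 and 1, 44 with the trend, and 0 to 36. Over both times the 723 became 1231 with the block, and 377 to 730. Members passing ranged from 0 to 1 for time with doxycycline and over both times when 1 array was left out. Ramp1 has no value without the dim probe sets. With the block, no member other than Ramp2 changed its call.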
